A study of Mus musculus with 8 samples.

Results

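The noncollagen glycoproteins of the extracellular matrix and the laminins were examined in *Bapx1*-EGFP positive cells of the E12.5 mouse spleen. A list of 45 genes was used, in 4 groups, namely 15 genes of elastic fibres and microfibrils, 10 matricellular and adhesive genes, 9 genes of cartilage and hyaluronan matrix and 11 genes of the basement membrane. A gene was a member if the array annotation gave its symbol to a probe, whatever its signal, and 41 of the 45 genes had such a probe. *Fbn1*, *Fbn2*, *Efemp2* and *Loxl2* had none under these symbols and were not analysed here. Signals were available for 81 of the 88 annotated probes, 51 of them were above background on at least 4 of the 8 arrays, and 29 genes were thereby tested among 10766 in all.

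The sorted cells carried enhanced green fluorescent protein (EGFP) at the *Bapx1* locus, which encodes an NK-class homeodomain protein also called Nkx3-2, and EGFP was made wherever the *Bapx1* promoter was active. In the 4 wildtype samples EGFP was linked through an IRES, a ribosomal entry site, within the 3' UTR, so that Bapx1 protein was still made, and the study writes this genotype as heterozygous for the reporter. In the 4 null samples EGFP was placed behind the start codon of *Bapx1* on both alleles. All 8 samples were of strain C57BL/6J;129, were sorted by fluorescence, and were hybridized singly to Illumina MouseWG-6 v2 BeadChips. The number of embryos behind a sample is not given, so p-values measure the spread between these samples. A difference is given as null minus wildtype on the log2 scale with its SE, an adjusted p under 0.05 was the threshold of a call, and levels are normalized log2 intensities, which are compared between arrays and not between probes.

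Matrix glycoproteins are secreted and assemble around the cell. Fibrillin microfibrils with their associated glycoproteins carry elastin, which lysyl oxidases crosslink. Matricellular proteins bind collagens, growth factors or cell surface receptors more than they bear load, and matrilins and hyaluronan-binding proteoglycans fill cartilage and loose mesenchyme. Laminins, each built of an alpha, a beta and a gamma chain, form the sheet of the basement membrane, which nidogens and perlecan tie to collagen IV.

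The arrays resembled each other in depth, with 42.0 to 44.5% of probes above background and median signals of 8.2 to 14.5. The probe for *Nkx3-2* (*Bapx1*) was not above background on any wildtype array and was 6.76 to 7.37 on the null arrays. The place of this probe in the transcript was not known here and the null allele keeps most of the transcript, so it does not check the genotype. Of the other spleen mesenchyme markers, *Nkx2-5* was lower in null by 2.31 and *Nkx2-3* by 0.70, *Barx1* was higher by 1.47, *Tcf21* differed by 0.05 (adjusted p = 0.737), and *Tlx1* was below background on all arrays. Other properties also moved with genotype. *Xist* was 10.76 to 12.44 on wildtype and 9.18 to 9.91 on null arrays, and the sex makeup of the samples cannot be told apart from genotype. The mean level of 30 splicing regulators was 10.66 to 10.87 on wildtype and 10.10 to 10.46 on null arrays. Markers of visceral smooth muscle averaged 7.92 to 8.49 on wildtype and 9.11 to 10.04 on null arrays, with 6 of 8 higher. Markers of skeletal muscle and somite averaged 6.37 to 6.63 and 7.65 to 7.86, with 3 of 4 higher, among them *Myh8*, a myosin heavy chain, by 3.51. The remaining marker, *Myog*, did not pass (-0.05, adjusted p = 0.702), and *Myod1* and *Actc1* were below background on all arrays. Markers of neural crest and glia averaged 6.12 to 6.44 and 6.89 to 7.66 and did not move alike. *Sox10* was higher by 2.63 and the neuronal *Stmn2* by 2.46. *Fabp7* was lower by 0.75 and *Elavl4* did not pass (-0.10, adjusted p = 0.629). *Foxd3*, *Erbb3* and *Tubb3* were below background on all arrays. Markers of mesothelium averaged 6.37 to 6.91 and 6.78 to 7.72, with 5 of 7 higher. Among the higher were *Krt8* and *Krt18*, which also count among the epithelial markers below. *Upk3b* (0.12, adjusted p = 0.741) and *Upk1b* (0.07, adjusted p = 0.841) did not pass. The part of these properties in the results below was not tested beyond the fits given with them.

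Of the 29 genes tested, 11 were higher in null, 7 were lower and 11 did not pass the test (limma, Benjamini-Hochberg adjustment over all genes). The 18 that differed were 62.1% of those tested, against 44.8% of all genes, and by direction 27.0% of all genes were higher and 17.7% lower. Over 2-fold, 6 genes were higher (4.40% of all genes) and 2 were lower (3.61%), so that 8 of 29, or 27.6%, were over 2-fold, against 8.02% of all genes. The 6 rises over 2-fold became 4 with an offset of 50 or median centring and 10 with scaling by the median absolute deviation. The genotypes did not overlap for 16 of the 29 genes, or 55.2%, against 40.2% of all genes. The median difference was 0.18, against 0.09 for all genes. These shares describe the list and were not tested against it. The study names scaling by the median absolute deviation as its own normalization. Where arrays were scaled here by their median and median absolute deviation instead of quantiles, the median of all genes moved to 0.43 and that of the list to 0.80. Of the list 13 genes were then higher and 1, *Hmcn1*, lower, so the other lower calls depend on the scaling. With the splicing regulator mean as covariate 3 of the 18 calls held, and with *Xist* 2, both covariates lying apart between the genotypes. Several differences were about as large with *Xist* though they did not pass, as for *Smoc1* (2.80), *Nid1* (-1.20), *Lama5* (1.18), *Emilin1* (-0.87) and *Thbs2* (-0.84), while others were smaller, as for *Mfap2* (0.07), *Lamb2* (0.18) and *Ecm1* (1.10). In bulk samples fewer cells of a type and less RNA per cell cannot be told apart.

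**Figure D1:**
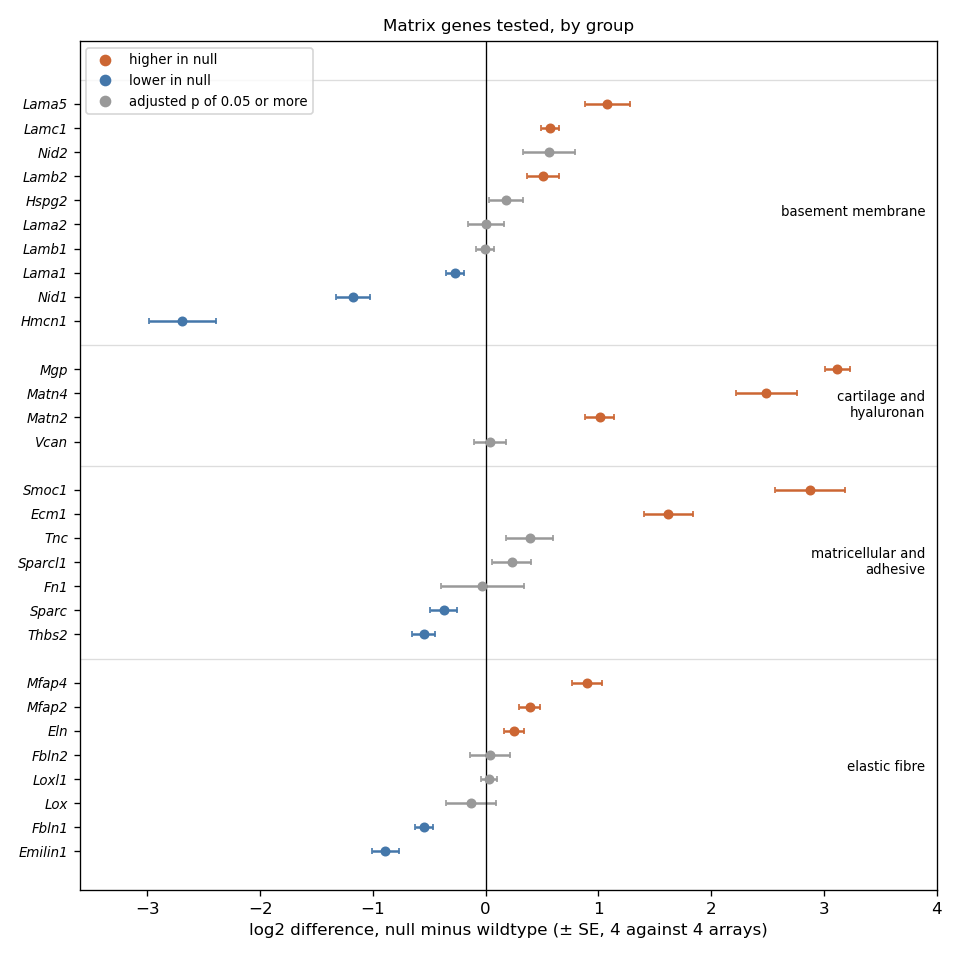
Log2 difference of each tested matrix gene, null minus wildtype, with its SE (x axis), by group (y axis), from 4 arrays against 4. *Mgp* (3.12) and *Hmcn1* (-2.69) lie at the ends, and the elastic fibre genes lie between -0.89 and 0.90. Under scaling by the median absolute deviation *Fbln1*, *Sparc* and *Lama1*, drawn here as lower, turn to 0.33, 0.46 and 0.44.

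The cartilage and hyaluronan group held the largest rise of the list. Of its 9 genes 4 were tested, and 3 of them were higher in null, beside 27.0% of all genes. The median difference of the group was 1.75. *Mgp*, which encodes matrix Gla protein, an inhibitor of calcification, was 6.03, 6.18, 6.06 and 6.14 on the wildtype arrays 1 to 4 and 9.30, 9.35, 8.94 and 9.33 on the null arrays. All null arrays lay far above all wildtype arrays, and only null array 3 stood somewhat below its group. The difference was 3.12 ± 0.11 (SE), or 8.72-fold, with an adjusted p of 5.37e-07, and it passed the test in each of the 23 other fits that were run, at 2.62 to 3.46. *Mgp* and *Fbln1* were the 2 members whose calls held both with *Xist* and with the splicing regulator mean as covariate.

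*Matn4* and *Matn2* encode matrilins, oligomeric adaptor proteins that link collagens and proteoglycans. *Matn4* was 4.54, 5.28, 5.26 and 4.77 on wildtype arrays, where it was above background on 2 of 4, and 7.42, 7.68, 8.01 and 6.72 on null arrays. The null arrays were all higher, and null array 4 was the lowest of them. The difference was 2.49 ± 0.27, or 5.63-fold (adjusted p = 0.000219), and it ran from 1.69 with an offset of 50 to 4.30 without background correction and 4.38 in the value table, so its size depends on how the background is treated. The other 2 probes of *Matn4* were not above background on any array.

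*Matn2* was 5.39, 5.33, 5.74 and 5.50 on wildtype arrays and 6.53, 6.24, 6.49 and 6.73 on null arrays, without overlap. The difference was 1.01 ± 0.13, or 2.01-fold (adjusted p = 0.000451). It ran from 0.66 with an offset of 50 to 1.36 without background correction, so whether it is over 2-fold depends on how the background is treated. A second probe of *Matn2*, above background on 1 of 4 wildtype arrays, differed by the same 1.01. The remaining probe differed by 0.05 (adjusted p over all probes = 0.801). The paralogs *Matn1* and *Matn3*, matrilins of hyaline cartilage, were not above background on any array. Neither were *Acan* and *Comp*, which encode the main proteoglycan and a pentameric glycoprotein of cartilage. *Hapln1*, a link protein, had no signal that could be assigned.

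*Vcan* encodes versican, the hyaluronan-binding proteoglycan of loose mesenchyme. Its brightest probe was 9.20, 9.10, 9.30 and 9.41 on wildtype arrays and 9.14, 9.15, 9.71 and 9.17 on null arrays. The genotypes overlapped, with null array 3 above the rest, and the difference was 0.04 ± 0.14 (adjusted p = 0.830). Among the markers of chondrocytes, *Col2a1* was higher by 2.03 and *Col9a1* by 1.24, while *Sox9* was lower by 1.52 and *Sox6*, *Cytl1* and *Col9a3* were lower too, and the other 4 of 10 tested did not pass. The mean over these 10 markers was 7.36 to 7.52 on wildtype and 7.32 to 7.48 on null arrays.

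**Figure D2:**
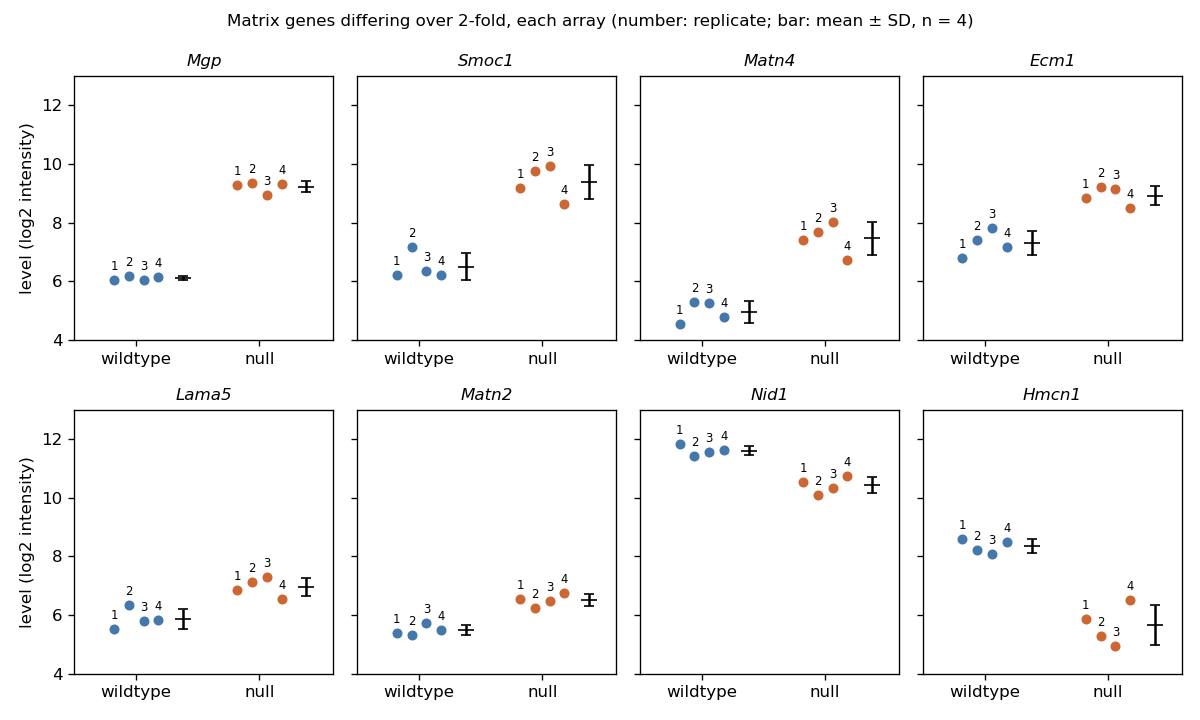
Level (log2 intensity, y axis) on each array of the 8 matrix genes that differed over 2-fold, wildtype and null on the x axis, numbers giving the replicate and bars the mean with its SD (n = 4). The genotypes do not overlap in any panel, and null array 4 lies nearest to wildtype for *Smoc1*, *Matn4*, *Ecm1*, *Lama5*, *Nid1* and *Hmcn1*, but not for *Mgp* and *Matn2*.

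Promoters were read from RefSeq (GRCm38.p6) as windows of 300 bases, 250 before and 50 after a start, for the letters TAAGTG or TGAGTG on either strand, the core that NK-class homeodomain proteins bind. A window was listed for 17 of the 29 tested genes, and 2 of these genes held a match, against 26.8% of all genes with a window and 23.9% of all windows. They were *Matn4*, higher in null, and *Tnc*, which did not pass the test. *Mgp*, *Smoc1* and *Matn2* were among the 12 without a window. The matches are shown because they set the promoter letters of 1 rising gene beside those of 1 gene that did not pass, with 10 bases on each side, on the strand of the gene and with the match in capitals. They begin 58 bases before a start of *Matn4* (chr2:164405203-164405228, minus strand) and 80 bases before a start of *Tnc* (chr4:64047080-64047105, minus strand). A match is a run of letters and no binding was measured here.
Matn4: ttcttttcttTGAGTGtagcacgggt
Tnc: gcgcctggagTGAGTGcgtctttcat

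In the matricellular and adhesive group 2 of the 7 genes tested were higher in null, 2 were lower and 3 did not pass. This stands beside 27.0% of all genes higher and 17.7% lower. The median difference of the group was 0.23. The 2 rises were over 2-fold. *Smoc1*, which encodes a secreted calcium-binding relative of SPARC, was 6.21, 7.18, 6.34 and 6.23 on wildtype arrays and 9.18, 9.77, 9.92 and 8.63 on null arrays. Wildtype array 2 stood above its group and null array 4 below its own, and the genotypes did not overlap. The difference was 2.88 ± 0.31, or 7.38-fold (adjusted p = 0.000185). A dimmer probe of *Smoc1* was not above background on any wildtype array and was 5.21 to 5.37 on null arrays, at least 1.15-fold higher. The bound is the null mean over the lowest level above background on each wildtype array. This probe was kept through the null arrays alone, so no p-value is given for it.

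*Ecm1*, a secreted glycoprotein that binds other matrix proteins, was 6.80, 7.42, 7.80 and 7.17 on wildtype arrays and 8.84, 9.20, 9.13 and 8.50 on null arrays. Every null array lay above every wildtype array, and the difference was 1.62 ± 0.22, or 3.07-fold (adjusted p = 0.000705).

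The 2 lower genes of the group moved less. *Thbs2*, a thrombospondin, was 8.30, 8.30, 8.63 and 8.41 on wildtype arrays and 7.87, 7.73, 7.95 and 7.88 on null arrays, without overlap, a difference of -0.55 ± 0.10 (adjusted p = 0.00261). *Sparc*, the collagen-binding glycoprotein after which this family is named, was 12.01, 11.71, 11.86 and 11.95 on wildtype arrays and 11.58, 11.51, 11.24 and 11.73 on null arrays. The genotypes overlapped, with null array 4 above wildtype array 2, and the difference was -0.37 ± 0.12 (adjusted p = 0.0316). The call on *Sparc* was lost without wildtype array 1, 3 or 4 or null array 1, 2 or 3, with adjusted p of 0.0503 to 0.0860, and the difference turned to 0.46 under scaling by the median absolute deviation.

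The remaining tested genes of the group did not pass. *Sparcl1*, a second SPARC relative, was 11.06, 11.21, 11.42 and 11.30 on wildtype arrays and 11.59, 11.23, 11.18 and 11.91 on null arrays, a difference of 0.23 ± 0.17 (adjusted p = 0.279). *Tnc*, which encodes tenascin C, an adhesion-modulating glycoprotein, was 9.04, 9.33, 8.40 and 9.03 on wildtype arrays and 9.48, 9.33, 8.94 and 9.59 on null arrays, a difference of 0.39 ± 0.21 (adjusted p = 0.153). *Fn1*, which encodes fibronectin, the ligand of several integrins, was 7.70, 7.67, 6.93 and 7.71 on wildtype arrays and 7.87, 7.54, 6.31 and 8.16 on null arrays. Array 3 was the lowest in each genotype, null array 4 was the highest of all, and the difference was -0.03 ± 0.37 (adjusted p = 0.953). *Thbs1* was not above background on any array, and *Smoc2* and *Postn* were above it on 3 and 2 arrays.

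*Postn*, which encodes periostin, was above background on 2 wildtype arrays and on no null array, and with no filter on detection its brightest probe was 4.83, 4.75, 5.48 and 5.31 on wildtype arrays and 4.57, 4.56, 4.62 and 4.61 on null arrays. In that fit, over 39 members, it was the only gene added to the calls, at -0.50 (adjusted p = 0.0373).

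In the elastic fibre group no gene was over 2-fold in the fit given here. Under scaling by the median absolute deviation, where the median of all genes was 0.43, *Mfap4* (1.54) and *Mfap2* (1.40) were. With median centring *Emilin1* was at -1.01. *Mfap4* was at 1.26 with the splicing regulator mean as covariate and at 1.01 without wildtype array 1. It was at 1.03 without wildtype array 3 and null arrays 2 and 3, and at 1.10 with null array 4 alone. Of the 8 genes tested 3 were higher in null, 2 were lower and 3 did not pass, beside 27.0% of all genes higher and 17.7% lower. The median difference of the group was 0.03. *Mfap4*, a microfibril-associated glycoprotein that binds elastin, was 10.30, 9.83, 9.94 and 9.81 on wildtype arrays and 10.94, 10.66, 10.82 and 11.07 on null arrays. All null arrays were higher, and the difference was 0.90 ± 0.13, or 1.87-fold (adjusted p = 0.00106). *Mfap2*, which encodes a glycoprotein bound to fibrillin microfibrils, was 12.75, 12.67, 12.84 and 12.59 on wildtype arrays and 13.12, 13.02, 13.19 and 13.08 on null arrays, a difference of 0.39 ± 0.09 (adjusted p = 0.00665). The call on *Mfap2* was lost with median centring (0.35, adjusted p = 0.0612) and in the mean of its probes (0.13, adjusted p = 0.227). *Eln*, which encodes elastin itself, was 7.97 to 8.29 on wildtype and 8.28 to 8.45 on null arrays. Its difference of 0.25 ± 0.09 (adjusted p = 0.0464) lost the call without any single array other than wildtype array 3, at adjusted p of 0.0587 to 0.124.

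*Emilin1* and *Fbln1* moved the other way. *Emilin1*, a glycoprotein at the interface of elastin and microfibrils, was 10.75, 10.21, 10.38 and 10.54 on wildtype arrays and 9.51, 9.71, 9.54 and 9.58 on null arrays. No null array reached the wildtype range, and the difference was -0.89 ± 0.12, or 1.85-fold lower (adjusted p = 0.000614). *Fbln1*, a fibulin of elastic fibres and basement membranes, was 12.5, 12.42, 12.60 and 12.34 on wildtype arrays and 11.87, 11.89, 11.95 and 11.92 on null arrays. The null arrays were all lower and lay within a narrow range, and the difference was -0.55 ± 0.08 (adjusted p = 0.00101). Under scaling by the median absolute deviation *Emilin1* was at -0.34 (adjusted p = 0.196) and *Fbln1* at 0.33 (adjusted p = 0.463), where the median of all genes was 0.43. With a covariate *Fbln1* still passed, at -0.71 with the splicing regulators and -0.83 with *Xist*.

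The lysyl oxidases and *Fbln2* did not pass. *Loxl1*, the crosslinking enzyme associated with elastin, was 12.19, 12.18, 12.21 and 12.04 on wildtype arrays and 12.17, 12.20, 12.17 and 12.18 on null arrays, a difference of 0.03 ± 0.07 (adjusted p = 0.798). *Lox* was 8.97 to 9.29 on wildtype and 8.58 to 9.60 on null arrays, with null array 4 highest, and the fibulin *Fbln2* was 9.81 to 10.20 and 9.61 to 10.47, with null array 4 lowest. *Mfap5* was above background on 2 of 8 arrays and *Efemp1* on none, and *Fbln5* had no signal that could be assigned.

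In the basement membrane group 10 of 11 genes were tested, of which 3 were higher in null, 3 were lower and 4 did not pass. This stands beside 27.0% of all genes higher and 17.7% lower. The median difference of the group was 0.09. The largest fall was that of *Hmcn1*, which encodes hemicentin, a large extracellular relative of the fibulins. It was 8.59, 8.20, 8.08 and 8.49 on wildtype arrays and 5.85, 5.28, 4.94 and 6.52 on null arrays, where it was above background on 3 of 4. Null array 4 was the highest of its group and still below every wildtype array. The difference was -2.69 ± 0.30, or 6.47-fold lower (adjusted p = 0.000238), and a second probe differed by -1.03 ± 0.27 (adjusted p over all probes = 0.0149).

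The paralogous nidogens, which join laminin to collagen IV, did not move alike. *Nid1* was 11.81, 11.42, 11.56 and 11.62 on wildtype arrays and 10.53, 10.10, 10.31 and 10.75 on null arrays, without overlap. The difference was -1.18 ± 0.15, or 2.26-fold lower (adjusted p = 0.000412). It was -0.47 (adjusted p = 0.232) under scaling by the median absolute deviation. *Nid2* was 9.72, 9.76, 9.30 and 9.68 on wildtype arrays and 10.46, 9.81, 9.67 and 10.74 on null arrays. Null arrays 1 and 4 were well above wildtype and null array 3 was within it, and the difference of 0.56 ± 0.23 did not pass (adjusted p = 0.0797). Without null array 3 *Nid2* passed at 0.72 (adjusted p = 0.0329). The difference between the nidogens was not itself tested.

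Of the laminin chains 3 were higher in null. *Lama5*, the alpha chain of many epithelial basement membranes, was 5.52, 6.32, 5.78 and 5.84 on wildtype arrays and 6.84, 7.12, 7.29 and 6.55 on null arrays. The genotypes did not overlap, though wildtype array 2 and null array 4 came close, and the difference was 1.08 ± 0.20, or 2.12-fold (adjusted p = 0.00293). It was 0.77 with an offset of 50, 0.93 with median centring and 1.35 without background correction. Whether *Lama5* is over 2-fold thus depends on the processing. *Lamc1*, the gamma chain that most laminins share, was 10.51, 10.60, 10.51 and 10.49 on wildtype arrays and 10.99, 11.04, 11.26 and 11.11 on null arrays, a difference of 0.57 ± 0.08 (adjusted p = 0.00103). A second probe of *Lamc1* differed by 0.15 and did not pass (adjusted p over all probes = 0.146). *Lamb2*, a beta chain, was 9.04, 9.04, 9.20 and 8.73 on wildtype arrays and 9.48, 9.84, 9.44 and 9.29 on null arrays. The genotypes did not overlap, the difference was 0.51 ± 0.14 (adjusted p = 0.0171), and it was 0.42 without wildtype array 4 (adjusted p = 0.0501) and 0.37 with median centring (adjusted p = 0.115).

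*Lama1*, an alpha chain of early embryonic basement membranes, was lower. It was 11.23, 11.11, 11.20 and 11.07 on wildtype arrays and 10.86, 10.99, 10.84 and 10.87 on null arrays. The genotypes did not overlap, but the difference was small at -0.27 ± 0.08 (adjusted p = 0.0229). The call was lost without wildtype array 1, null array 1 or null array 3, with adjusted p of 0.0673, 0.0609 and 0.0507, and the difference turned to 0.44 under scaling by the median absolute deviation.

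*Lamb1*, *Lama2* and *Hspg2* overlapped between genotypes and did not pass. The beta chain *Lamb1* was 9.63 to 9.80 on wildtype and 9.55 to 9.77 on null arrays, and the alpha chain *Lama2* was 6.01 to 6.41 and 5.95 to 6.66. *Hspg2*, which encodes perlecan, was 10.24 to 10.50 on wildtype arrays and 10.30, 10.80, 10.85 and 10.26 on null arrays, a difference of 0.18 ± 0.15 (adjusted p = 0.343). None of the 5 probes of *Lama4* was above background on any array.

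Probes of the same gene did not always move together. Of the 51 probes above background 13 were higher in null, 13 were lower and 25 did not pass, so that 26 differed, against 41.9% of all probes, 21.6% higher and 20.3% lower. The dimmer *Smoc1* probe, kept through the null arrays alone, is counted among those higher. More than 1 probe was above background for 13 genes, and for 4 of these the probes differed by over 1 on the log2 scale in their null minus wildtype difference, namely *Vcan*, *Smoc1*, *Sparc* and *Hmcn1*. *Vcan* had 5 such probes, at -1.51, -0.22, 0.04, 0.25 and 0.90, of which the first passed (adjusted p over all probes = 0.00228).

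The lowest *Vcan* probe was 6.72, 6.95, 6.33 and 7.13 on wildtype arrays and 5.52, 5.22, 4.63 and 5.73 on null arrays, without overlap. The highest was 5.47 to 5.55 on wildtype arrays and 6.39, 6.10, 7.61 and 5.57 on null arrays (adjusted p = 0.0705), with null array 3 far above the rest. *Mfap2* had 2 probes that were higher, by 0.39 and 0.46, and 1 that was lower, by 0.47 (adjusted p = 0.0238). *Sparc* had probes at -0.79, -0.37 and 0.37, and the 5 *Fbln1* probes lay between -0.94 and -0.13, with 3 lower. *Nid1* had a second probe at -0.26 (adjusted p = 0.327). The places of the probes in the transcripts were not known here, so a gene's value stands for its brightest probe only.

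**Figure D3:**
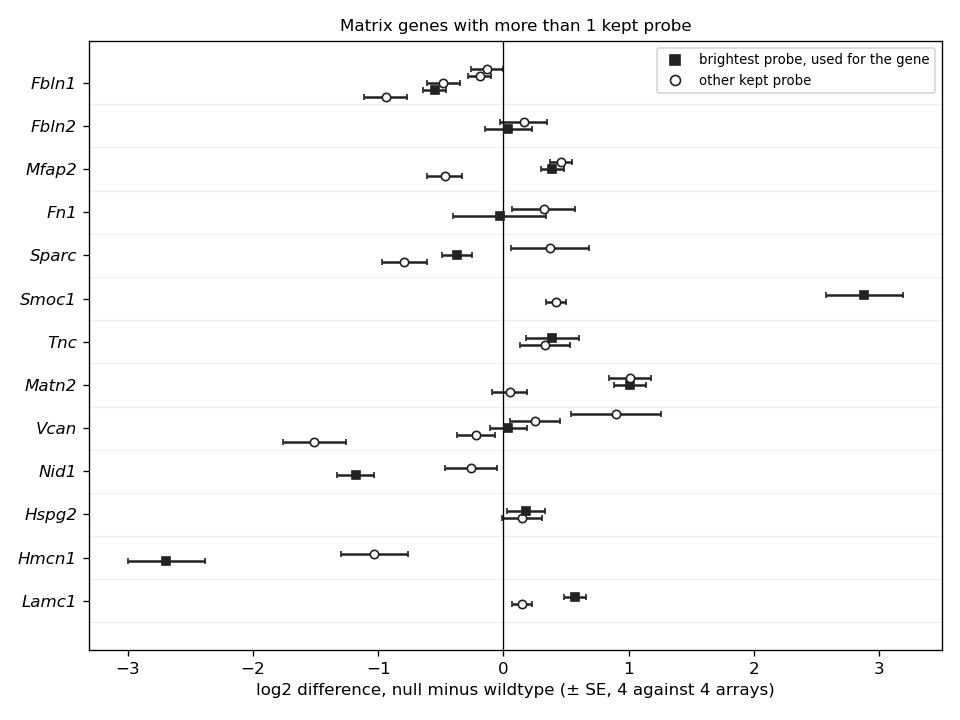
Log2 difference, null minus wildtype, with its SE (x axis, 4 against 4 arrays), of each probe above background for the 13 matrix genes (y axis) that have more than 1. Squares mark the brightest probe, which stands for the gene. The *Vcan* probes span -1.51 to 0.90 and 1 *Mfap2* probe lies at -0.47 against 0.39 and 0.46.

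The null arrays differed among themselves in markers of other cell types. The mean over 7 blood genes was 6.36 on null array 4 and 8.59, 9.12 and 9.53 on null arrays 1 to 3, against 6.81 to 7.94 on wildtype arrays. The mean over 11 endothelial genes was 5.94 on null array 4 and 7.24, 7.74 and 8.06 on the others, against 6.07 to 7.20 on wildtype arrays, and over 6 epithelial genes 5.64 against 6.78, 7.24 and 7.64, with 5.22 to 5.65 on wildtype arrays. In summed linear intensity the ranges were 1550 to 4950 on wildtype and 834 to 20000 on null arrays for blood, 1700 to 2740 and 1970 to 4510 for endothelium, and 240 to 340 and 340 to 1470 for epithelium. Of these markers 2 of 7, 1 of 11 and 5 of 6 were higher in null and the endothelial *Tek* was lower. *Gata1*, *Ptprc*, *Kdr*, *Tie1*, *Foxa2* and *Grhl2* were below background on all arrays. The splicing regulators ran the opposite way, at 10.46 on null array 4 and 10.39, 10.19 and 10.10 on null arrays 1 to 3.

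Several matrix genes followed this order of the null arrays. *Smoc1*, *Matn4*, *Lama5* and *Hspg2* rose from null array 4 through 1 and 2 to 3, and *Fn1*, *Hmcn1*, *Lama2*, *Nid2*, *Sparc*, *Sparcl1* and *Tnc* fell. The 4 that rose were 13.8% of the tested members, against 15.0% of all genes, and the 7 that fell were 24.1%, against 14.8%. Null array 4 was outside the wildtype range for *Smoc1* (8.63 against at most 7.18), *Matn4* (6.72 against at most 5.28), *Lama5* (6.55 against at most 6.32) and *Hmcn1* (6.52 against at least 8.08). This follows from the lack of overlap already given for these genes. Null array 4 was within the wildtype range for *Hspg2* (10.26) and *Sparc* (11.73), and above it for *Fn1*, *Lama2*, *Nid2*, *Sparcl1* and *Tnc*.

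With null array 4 as the only null array, a fit chosen after seeing the data in which its spread is taken from the wildtype arrays, 7 members were higher and 3 were lower among 1077 genes called. *Mgp* (3.22), *Smoc1* (2.14), *Matn4* (1.75), *Matn2* (1.24), *Mfap4* (1.10), *Lamc1* (0.58), *Hmcn1* (-1.82), *Emilin1* (-0.89) and *Nid1* (-0.85) kept their calls. *Ecm1* (1.20, adjusted p = 0.0789), *Lama5* (0.69, adjusted p = 0.178), *Fbln1* (-0.54, adjusted p = 0.0638), *Thbs2* (-0.53, adjusted p = 0.0993), *Mfap2* (0.37), *Lamb2* (0.29), *Eln* (0.24), *Lama1* (-0.29) and *Sparc* (-0.15) did not, and *Nid2* passed at 1.13 (adjusted p = 0.0219). On this array the marker means of smooth muscle (9.11), skeletal muscle and somite (7.86) and neural crest and glia (6.89) lay above the wildtype arrays. Of the neural crest and glia markers tested only *Stmn2* (9.01) was above its wildtype range there. *Sox10* (5.26) and *Elavl4* (6.78) were within theirs and *Fabp7* (6.49) was below. The part of the cell types in the differences on null array 4 was not tested. With the splicing regulator mean as covariate the differences of *Smoc1* (1.59), *Matn4* (1.02), *Ecm1* (0.50), *Lama5* (0.38), *Hmcn1* (-0.90) and *Nid1* (-0.57) were smaller and did not pass.

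**Figure D4:**
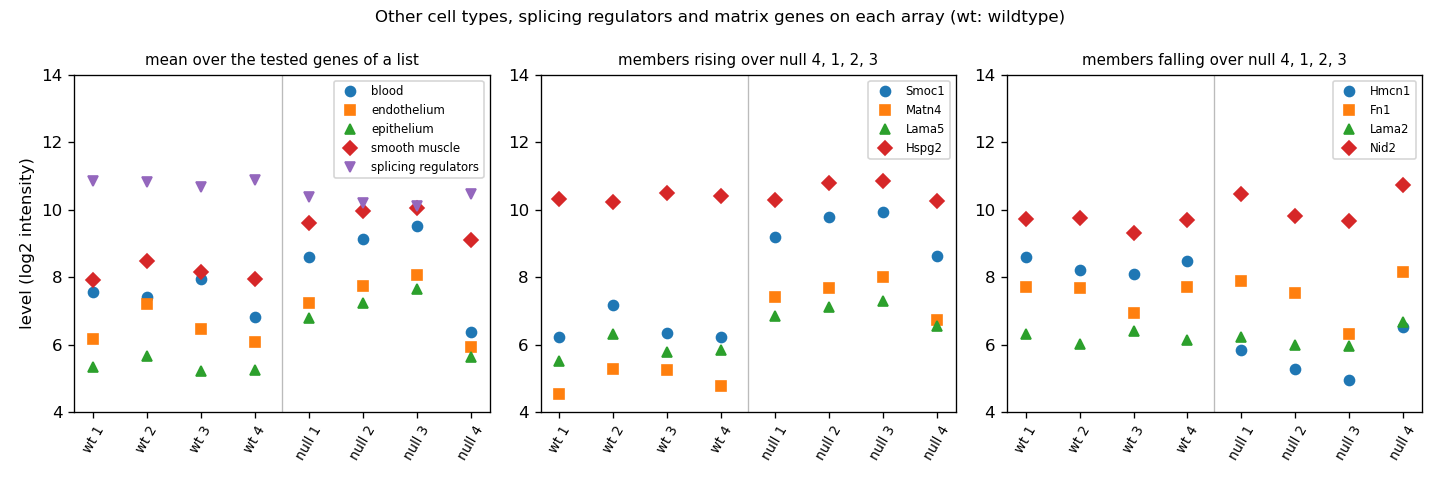
Levels (log2 intensity, y axis) on each of the 8 arrays (x axis): means over marker lists and splicing regulators (left), 4 matrix genes that rose (middle) and 4 that fell (right) from null array 4 through 1 and 2 to 3. On null array 4 the blood mean is 6.36 against 8.59 to 9.53 on the other null arrays, and *Smoc1* is at 8.63, above the wildtype arrays.

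Other matrix genes were counted from lists. Of 23 further matrix glycoproteins tested 9 were higher and 4 were lower, with a median difference of 0.10, led by *Spon1* (1.32 ± 0.13), *Ltbp1* (1.04 ± 0.11) and *Spock3* (1.10 ± 0.18). *Ltbp1* encodes a latent TGF-beta binding protein that sits on fibrillin microfibrils, and *Spon1* and *Spock3* encode secreted glycoproteins. Of 21 matrix proteases and inhibitors 10 were higher and 3 were lower, with a median of 0.21. The versican-cleaving protease *Adamts9* was 9.14 to 9.41 on wildtype and 10.61 to 11.21 on null arrays, a difference of 1.61 ± 0.13 (adjusted p = 3.66e-05), *Adamts4*, an aggrecan-cleaving protease, was higher by 0.80 ± 0.11, and *Adamts16* was not above background on any wildtype array and at least 1.62-fold higher.

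Of 16 matrix receptors 7 were higher and 1 was lower, with a median of 0.38. The laminin-binding integrin chains *Itgb4* (1.21 ± 0.14) and *Itga6* (1.34 ± 0.25), which pair in hemidesmosomes, were higher, and *Itga8* (-0.82 ± 0.15), an alpha chain with nephronectin and fibronectin among its ligands, was lower. *Itga6* rose from null array 4 (6.27) through 1, 2 and 3 (6.33, 6.90 and 7.28), against 5.04 to 5.82 on wildtype arrays. *Itga8*, though lower in null, rose in the same order, at 9.30 and then 9.36, 9.47 and 9.78. So did 15.0% of all genes, so the order does not set *Itga6* apart. These shares of 56.5%, 61.9% and 50% of the tested genes stand beside 44.8% of all genes, and the lists were not tested.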

How the data were processed

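The intensity table was deposited by the authors after background subtraction in GenomeStudio, without normalization between arrays, and its p-value columns, as deposited, hold 1 minus the detection p and were turned. Set against the signals, the deposited log2 values proved to be log2 signals (floor 1) from which the array median and a baseline per probe of unknown source were taken. The 45281 probes of both tables were joined by profile over the arrays. This named 34536, among them all 19841 detected ones.

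Signals were normalized by neqc (offset 16, quantile) in limma 3.58.1 under R 4.3.3, with statmod 1.5.0. A probe was kept if at least 4 arrays had a detection p under 0.05, and the brightest stood for the gene. Genotype was the single factor of the lmFit and eBayes test, two-sided, with Benjamini-Hochberg adjustment. On simulated data 32 of 67 genes changed 1.5-fold and 62 of 67 changed 2-fold were recovered, and 8 of 10566 unchanged genes were called. Members over 2-fold, up to 3 of the brightest of each group and contrasting paralogs are given by array, and of the other lists the 3 with the largest absolute moderated t. A fold is given as "at least" where 1 genotype was not above background. The precision of arrays is limited by their number. Alternatives were other offsets, scalings, filters, probe rules, tests and covariates, the value table, and leaving out arrays. Members and lists were chosen with earlier results of these data known.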

Additional observations from a re-analysis of the deposited data

Results flagged for a closer look

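Among 58 groups of 4 arrays (29 genes in each genotype), 6 held an array whose gap to its nearest neighbour, as a share of the range of the group, was past Dixon's critical value. Chance gives about 1 in 20. *Fn1* was 6.93 on wildtype array 3, against 7.67 to 7.71 on the other wildtype arrays. *Nid2* was 9.30 on the same array, against 9.68 to 9.76. *Smoc1* was 7.18 on wildtype array 2, against 6.21 to 6.34, and *Lamc1* was 10.60 on that array, against 10.49 to 10.51, the latter gap being small in size. *Vcan* was 9.71 on null array 3, against 9.14 to 9.17, and *Mgp* was 8.94 on that array, against 9.30 to 9.35. Wildtype array 3 had the lowest splicing regulators of its genotype (10.66) and wildtype array 2 the highest endothelial mean (7.20). Null array 3 had the lowest splicing regulators of all (10.10). The part of these in the flagged values was not tested.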

How the results depend on the processing

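The 29 tested genes were recomputed under 23 other fits, and 518 of 664 values kept their direction and their side of the threshold. An offset of 50, no background correction and no filter kept all 18 calls. Where a detection p under 0.01 was required on all arrays, 26 members were tested, with 9 higher and 6 lower. *Matn2*, *Matn4* and *Hmcn1* were not tested in that fit, which left 4 members higher and 1 lower over 2-fold. Scaling by the median absolute deviation left 13 members higher and 1 lower, and 14.2% of all calls were then lower, against 39.6% before and 60.9% with median centring, which left 8 and 5. The value table left 10 and 5. With the splicing regulator mean as covariate 5 members were higher and 1 was lower of 811 genes called, and with *Xist* 1 and 1 of 307. With null array 4 as the only null array 7 were higher and 3 were lower of 1077 genes, with fewer arrays. Without single arrays 9 to 11 members were higher and 5 to 7 lower, and 3373 to 5665 genes were called in all. Same-numbered arrays correlated at 0.12, 0.05, 0.32 and 0.38, and the highest correlations with another number were 0.26, 0.07, 0.34 and 0.19. So few arrays cannot decide whether replicate numbers pair the samples, and the main fit has no pairing. With the replicate block 13 members were higher and 7 lower of 5043 genes called, *Tnc* and *Nid2* being added.

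The 62 values that turned sign belonged to members that had not passed, except 6. Under scaling by the median absolute deviation *Fbln1* was at 0.33, *Sparc* at 0.46, *Lama1* at 0.44, *Lox* at 0.29, *Fn1* at 0.17 and *Lamb1* at 0.48. With median centring *Fbln2* was at -0.08, *Loxl1* at -0.03 and *Vcan* at -0.10. *Lamb1* was at 0.03 in the value table, *Lama2* at 0.00093 with an offset of 50, and *Fn1* at 0.15 and *Vcan* at -0.11 as means of probes. With the splicing regulator mean as covariate *Fbln2* was at -0.82, *Eln* at -0.01, *Lox* at 1.05, *Loxl1* at -0.05, *Fn1* at 2.13, *Sparc* at 0.11, *Vcan* at -0.42, *Hspg2* at -0.62, *Lama2* at 0.53 and *Lamb1* at 0.24. With *Xist* *Fbln2* was at -0.30, *Eln* at -0.0015, *Lox* at 0.12, *Loxl1* at -0.11, *Fn1* at 1.42, *Vcan* at -0.19, *Hspg2* at -0.10 and *Lamb1* at 0.23. Without wildtype array 3 and null arrays 2 and 3 *Fbln2* was at -0.26, *Lox* at 0.26, *Fn1* at 0.32, *Vcan* at -0.08, *Hspg2* at -0.05, *Lama2* at 0.29 and *Lamb1* at 0.01. With null array 4 alone *Fbln2* was at -0.46, *Lox* at 0.46, *Fn1* at 0.66, *Vcan* at -0.08, *Hspg2* at -0.12, *Lama2* at 0.45 and *Lamb1* at 0.07. Without single arrays *Fbln2* lay between -0.08 and 0.20, *Lox* between -0.33 and 0.01, *Loxl1* between -0.01 and 0.04, *Fn1* between -0.26 and 0.36, *Vcan* between -0.10 and 0.09, *Lama2* between -0.15 and 0.08 and *Lamb1* between -0.04 and 0.04. The cause was not tested. Probes near background, such as those of *Matn4* and *Hmcn1*, understate a fold.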
